A study of Homo sapiens with 9 samples.

Results

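The EGR, KLF and IER immediate early genes described here are EGR1, EGR3, IER2, IER3, KLF2, KLF4, KLF6, KLF10 and ZFP36, followed in the prostate cancer line PC3, which grew out of a bone metastasis. All probe sets annotated to 1 of these 9 symbols were taken, 17 of the 54613 probe sets of the array that are not controls. Of the 17, 12 passed the filter on dim probe sets and represent 7 genes; all 3 probe sets of EGR1, the probe set of EGR3 and 1 of the 5 of KLF6 did not.

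The 9 Affymetrix Human Genome U133 Plus 2.0 arrays fall into 4 groups, all collected after 48 h. In 2 arrays PC3 cells shared the well with primary osteoblasts of Sost knockout mice (OB SostKO). In 2 arrays the osteoblasts were wild type and 100 ng/ml recombinant human DKK1 was in the medium (OB WT + rhDKK1), and in 3 arrays the osteoblasts were wild type and 100 ng/ml recombinant human SOST was in the medium (OB WT + rhSOST). The last 2 arrays hold untreated PC3 cells grown without osteoblasts or added protein. The osteoblasts came from the skull bones of mouse pups and sat on inserts above the PC3 cells, so the RNA is labelled as that of PC3 cells. DKK1 and SOST are secreted antagonists of Wnt signaling. No array of PC3 cells with wild type osteoblasts alone was analysed here, so the effects of the osteoblasts and of the added protein cannot be told apart. Replicates are labelled biological with no word on whether they came from separate cultures, so a p-value measures the spread between these arrays, and their number limits the precision.

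Immediate early genes are transcribed within minutes of a growth factor, serum or stress signal, without the need for new protein, and are usually silent again within hours. Serum response factor (SRF), bound to CArG boxes and switched on by ERK kinases, and CREB, bound to cAMP response elements, drive many of them. EGR1 and EGR3 are zinc finger transcription factors that bind GC-rich sites, and the KLF proteins are zinc finger factors that bind GC or CACCC boxes. IER2 and IER3 are small early response proteins, of which IER3 modulates cell survival, and ZFP36 (tristetraprolin) binds AU-rich elements in mRNAs and promotes their decay. The question put to the arrays was whether the RNA of these genes differed between PC3 cells in each co-culture and untreated PC3 cells, and between the co-cultures.

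The promoter letters of 4 members are printed because they show which of the binding sites named above lie close to the start of genes with a probe set called lower in co-culture (KLF4, KLF6 and, only with no filter and by 2 of its 3 probe sets, EGR1) and of one with none (IER2). Each is the 250 bases before the RefSeq start in GRCh38.p14, written 5′ to 3′ on the strand of the gene. They lie at chr5:138465229-138465478 on the plus strand (EGR1), chr9:107489770-107490019 on the minus strand (KLF4), chr10:3785210-3785459 on the minus strand (KLF6) and chr19:13150161-13150410 on the plus strand (IER2). Capitals mark CArG boxes and the cAMP response element half-site TGACG on either strand in EGR1, KLF4 and IER2, and, in KLF6, which holds neither, the GC box GGGCGG on either strand.
EGR1: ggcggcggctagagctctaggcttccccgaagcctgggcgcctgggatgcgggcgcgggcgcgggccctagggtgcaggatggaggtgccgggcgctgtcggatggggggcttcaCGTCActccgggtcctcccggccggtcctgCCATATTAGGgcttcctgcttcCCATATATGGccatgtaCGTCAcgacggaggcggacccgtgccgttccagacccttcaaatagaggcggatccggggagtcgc
KLF4: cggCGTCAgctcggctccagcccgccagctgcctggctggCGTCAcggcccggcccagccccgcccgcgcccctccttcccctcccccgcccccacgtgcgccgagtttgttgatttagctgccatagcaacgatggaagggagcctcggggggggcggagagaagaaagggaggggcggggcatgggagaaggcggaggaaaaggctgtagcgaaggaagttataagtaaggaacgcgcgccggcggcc
KLF6: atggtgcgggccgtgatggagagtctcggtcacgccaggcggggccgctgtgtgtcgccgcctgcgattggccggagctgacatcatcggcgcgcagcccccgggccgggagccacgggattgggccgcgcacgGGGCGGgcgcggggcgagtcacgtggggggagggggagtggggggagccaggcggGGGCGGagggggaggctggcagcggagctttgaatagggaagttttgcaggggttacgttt
IER2: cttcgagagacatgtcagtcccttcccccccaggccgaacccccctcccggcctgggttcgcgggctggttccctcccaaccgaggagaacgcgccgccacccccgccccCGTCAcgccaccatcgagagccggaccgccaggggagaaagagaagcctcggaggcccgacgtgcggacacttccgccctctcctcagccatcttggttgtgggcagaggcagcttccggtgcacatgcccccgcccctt

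Promoters of 6 of the 9 members were searched (EGR1, IER2, KLF2, KLF4, KLF6 and ZFP36). EGR1 was the member with CArG boxes, at bases 105 to 96 and 83 to 74 before the start, while 1.14% of 27305 promoters of the same length held one. The half-site TGACG occurred in 3 of the 6 promoters (EGR1, KLF4 and IER2), against 21.7% of all promoters. GC boxes occurred in 5 of the 6, all but EGR1, against 42.3% of all promoters. The EGR site GCGNGGGCG occurred in 4 of the 6 (EGR1, KLF2, KLF4 and KLF6), against 8.25% of all promoters, and those of KLF2, KLF4 and KLF6 overlapped a GC box. IER2, whose RNA was not called different, shared the half-site with EGR1 and KLF4.

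Across the 12 probe sets that passed the filter, those of KLF4, KLF6, KLF10 and ZFP36 read lower in all 7 co-culture arrays than in both untreated arrays. These are 8 of the 12, where 10.6% of the 33970 probe sets kept lay entirely below in this way. At an adjusted p under 0.05 (limma, Benjamini-Hochberg over the 33970 probe sets), the mean of the 3 co-cultures was lower for 7 of the 12 member probe sets, which belong to 4 genes (KLF4, KLF6, KLF10 and ZFP36), against 2.75% of all kept probe sets. Taken singly, 4 member probe sets of 3 genes (KLF4, KLF6 and KLF10) were lower with OB SostKO, against 0.718% of the kept probe sets. The 3 that were lower with OB WT + rhDKK1 belong to 2 genes (KLF4 and KLF6), against 0.721% of the kept probe sets. The 7 that were lower with OB WT + rhSOST belong to 3 genes (KLF4, KLF6 and KLF10), against 1.32% of the kept probe sets. No member probe set was higher in any of these comparisons, which share the 2 untreated arrays, while 0.901% of kept probe sets were higher with OB SostKO, 1.03% with OB WT + rhDKK1, 2.66% with OB WT + rhSOST and 4.44% for the mean. Over the 12, the median log2 fold change was -0.45 with OB SostKO (-0.0005 over all kept probe sets), -0.43 with OB WT + rhDKK1 (-0.0035), -0.52 with OB WT + rhSOST (0.010) and -0.50 for the mean (0.0017). These calls depended on single arrays. Each share given below for an array left out counts calls in either direction. It is to be set against the lower and higher shares above, added up. Those were 0.718% and 0.901% with OB SostKO, and 0.721% and 1.03% with OB WT + rhDKK1. They were 1.32% and 2.66% with OB WT + rhSOST, and 2.75% and 4.44% for the mean. In every case below where member calls fell, calls over all kept probe sets fell as well. Both rose with OB WT + rhDKK1 without OB WT + rhSOST array 3. For the mean of the co-cultures 1 member probe set was called without untreated array 1 (0.477% of all kept probe sets, in either direction) and 2 without untreated array 2 (2.21%). The 4 calls with OB SostKO became 0 without either of its own arrays or either untreated array (0.0971% to 0.194% of all kept probe sets), 1 without either OB WT + rhDKK1 array (0.406%) or OB WT + rhSOST array 2 (0.483%), and 2 without OB WT + rhSOST array 1 (0.689%). The 3 calls with OB WT + rhDKK1 became 0 without either of its own arrays or either untreated array (0.0795% to 0.35%), 1 without OB WT + rhSOST array 1 (0.992%) or 2 (0.533%), and 6 without OB WT + rhSOST array 3 (4.01%). The 7 calls with OB WT + rhSOST became 0 without untreated array 1 (0.283%), 2 without untreated array 2 (1.32%), 1 and 2 without its own arrays 1 (1.42%) and 2 (0.624%), and 3 without either OB WT + rhDKK1 array (1.59%).

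**Figure D1:**
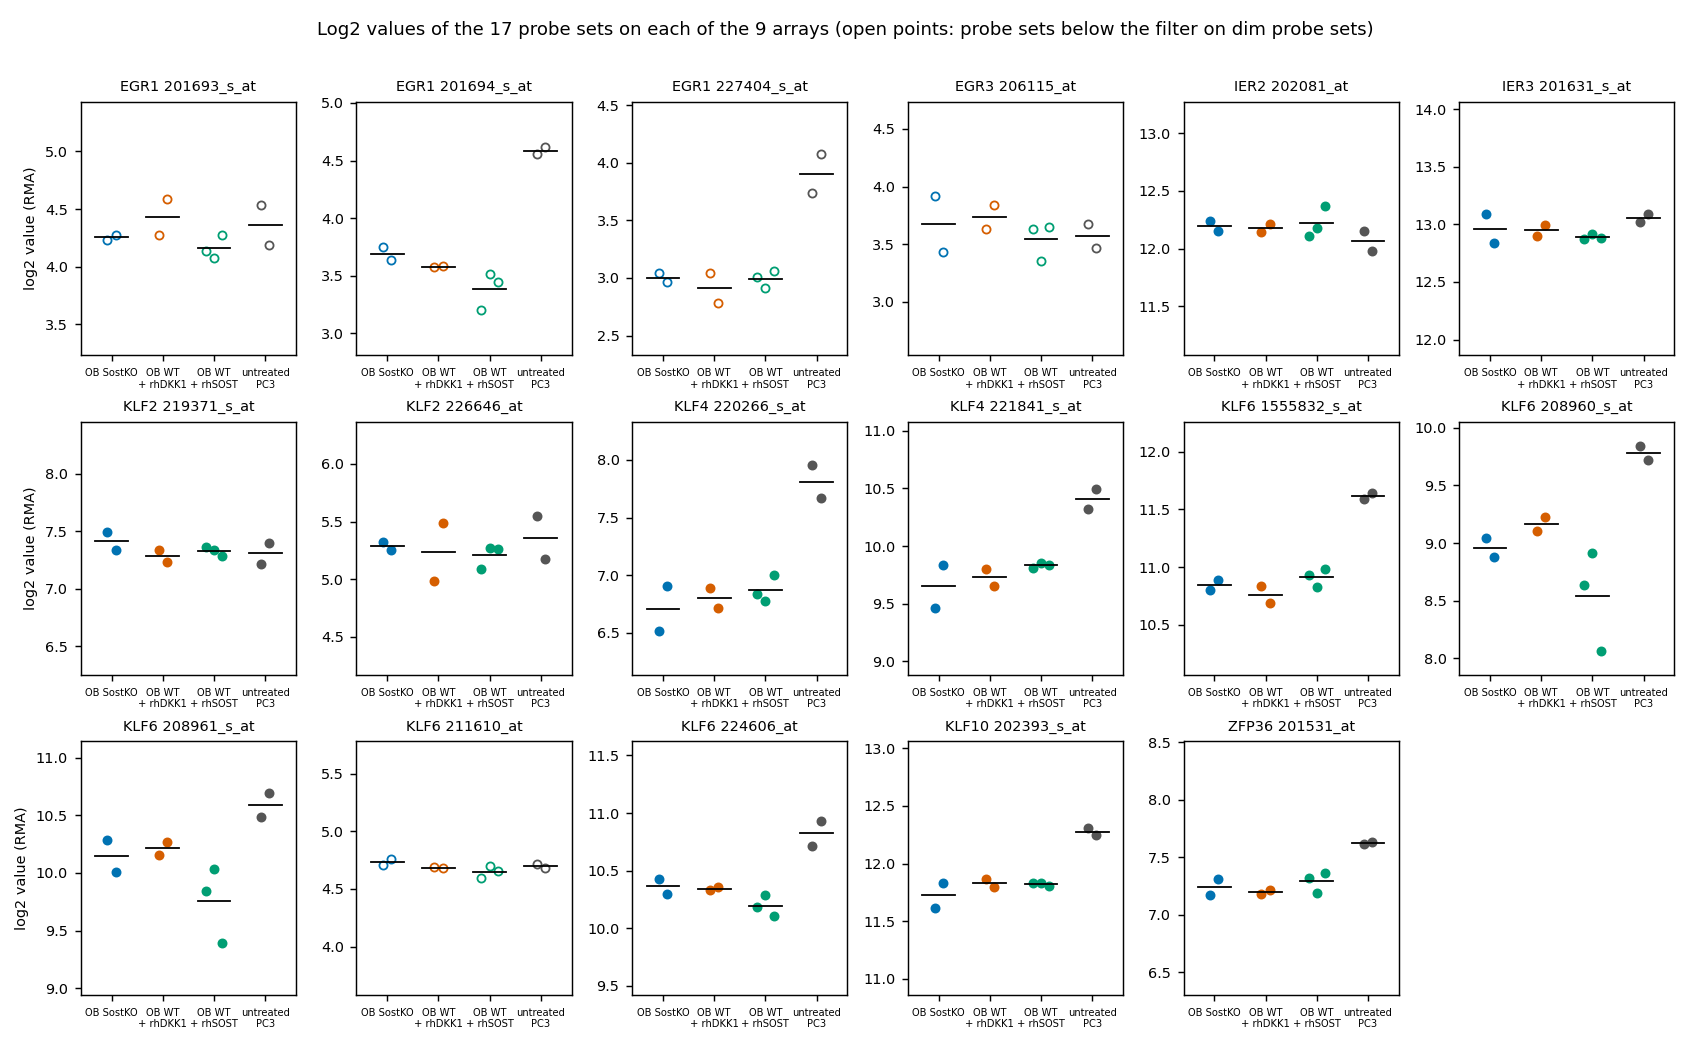
Log2 value (y axis, each panel spanning the same height) of each of the 17 probe sets on each of the 9 arrays by group; points are arrays, lines are group means and open points are probe sets below the filter. For KLF4, KLF10, ZFP36 and all KLF6 probe sets but 211610_at, the 7 co-culture arrays lie below both untreated arrays.

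The preparation of the arrays moved with the same groups. Poly-A control RNAs, spiked in before labelling, averaged 6.65 ± 0.28 on the log2 scale in the 7 co-culture arrays and 11.32 ± 0.48 in the 2 untreated arrays (SD, 24 probe sets, p = 0.0278 by an exact permutation test, two-sided, and no smaller p can come from these arrays). The 3′ minus 5′ log2 signal of ACTB was 1.38 ± 0.33 in the co-culture arrays and 0.69 ± 0.27 in the untreated arrays (exact p = 0.0278), and that of GAPDH was 0.20 ± 0.10 and 0.19 ± 0.07 in the same groups (exact p = 0.917). The part of these preparation differences in the lower values of KLF4, KLF6, KLF10, ZFP36 and EGR1 was not tested, and processing of the 2 kinds of array and culture condition cannot be told apart. Of the markers of the labelled cell line, 6 of 6 epithelial and PC3 markers passed the filter, with a mean log2 level of 12.59 to 12.71 in co-culture arrays and 12.60 to 12.63 in untreated arrays. Of 8 osteoblast markers with a probe set, 4 passed, and their mean log2 level over the 8 was 5.28 to 5.47 in co-culture arrays and 5.35 to 5.48 in untreated arrays, with SPP1 and POSTN near 3 on every array. COL1A1 and RUNX2 were measured in untreated PC3 cells as well, at log2 values of 8.92 to 9.13 and 8.87 to 8.91. In co-culture arrays they ranged over 8.68 to 9.77 and 8.62 to 9.16, reaching below and above the untreated arrays. The osteoblasts were mouse cells and the array is human, so these levels cannot show whether osteoblast RNA was present. Fewer cells carrying an RNA and less of it per cell cannot be told apart in these bulk samples.

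KLF4, which keeps epithelial cells differentiated and serves in reprogramming to pluripotency, showed the largest fold changes among the kept member probe sets called with OB SostKO or OB WT + rhDKK1. Its probe set 220266_s_at had log2 values of 6.51 and 6.90 with OB SostKO, 6.89 and 6.72 with OB WT + rhDKK1, 6.84, 6.78 and 7.003 in OB WT + rhSOST, and 7.95 and 7.67 in untreated PC3 cells. The 7 co-culture values did not overlap the untreated ones, and OB SostKO array 1 was the lowest. KLF4 fell by 1.10 ± 0.16 on the log2 scale with OB SostKO (SE, 2.14-fold lower, adjusted p = 0.0236), by 1.01 ± 0.16 with OB WT + rhDKK1 (2.01-fold lower, adjusted p = 0.0254) and by 0.94 ± 0.14 with OB WT + rhSOST (1.91-fold lower, adjusted p = 0.0173). A 2-fold threshold was therefore passed in OB SostKO and OB WT + rhDKK1 by this probe set alone among the 12, where 0.127% and 0.135% of kept probe sets were called at least 2-fold lower.

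The second KLF4 probe set, 221841_s_at, gave log2 values of 9.46 and 9.84 with OB SostKO, 9.81 and 9.65 with OB WT + rhDKK1, 9.81, 9.86 and 9.84 in OB WT + rhSOST, and 10.32 and 10.50 in untreated PC3 cells. Again OB SostKO array 1 was the lowest and no co-culture array reached an untreated one. KLF4 by this probe set fell on the log2 scale by 0.76 ± 0.13 with OB SostKO (adjusted p = 0.037), by 0.68 ± 0.13 where rhDKK1 was added (adjusted p = 0.048) and by 0.57 ± 0.12 where rhSOST was (adjusted p = 0.0415). For the mean of the co-cultures, the log2 fold change was -1.01 (adjusted p = 0.00613) by 220266_s_at and -0.67 (adjusted p = 0.0129) by 221841_s_at. Without untreated array 1 the adjusted p rose to 0.0758 and 0.0764, and without untreated array 2 that of 221841_s_at was 0.0845. The gene lies at chr9:107484852-107489769.

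KLF6, a zinc finger factor described as a tumor suppressor in the prostate, was measured by 5 probe sets, and they did not all give the same size of change. Probe set 1555832_s_at had log2 values of 10.80 and 10.89 with OB SostKO, 10.83 and 10.69 with OB WT + rhDKK1, 10.93, 10.83 and 10.99 in OB WT + rhSOST, and 11.59 and 11.64 in untreated PC3 cells. The gap between co-culture and untreated arrays exceeded the range within either kind. KLF6 by this probe set fell by 0.77 ± 0.09 on the log2 scale with OB SostKO (1.70-fold lower, adjusted p = 0.0128), by 0.86 ± 0.09 with OB WT + rhDKK1 (1.81-fold lower, adjusted p = 0.00897) and by 0.70 ± 0.08 with OB WT + rhSOST (1.62-fold lower, adjusted p = 0.00771). For the mean of the co-cultures the log2 fold change was -0.77 (adjusted p = 0.00246), and among the 12 kept member probe sets 1555832_s_at was the one called with each of the 9 arrays left out in turn, at an adjusted p of 0.0391 or less. The gene lies at chr10:3775996-3785209.

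A second pattern came from 208960_s_at and 208961_s_at, where the OB WT + rhSOST arrays spread widely. Probe set 208960_s_at had log2 values of 9.04 and 8.88 with OB SostKO, 9.11 and 9.22 with OB WT + rhDKK1, 8.64, 8.92 and 8.06 in OB WT + rhSOST, and 9.85 and 9.72 in untreated PC3 cells. OB WT + rhSOST array 3 was the lowest by far. KLF6 by this probe set fell by 1.25 ± 0.22 on the log2 scale with OB WT + rhSOST (2.37-fold lower, adjusted p = 0.0242), the one kept member probe set called at least 2-fold lower there, where 0.147% of kept probe sets were. Its log2 fold changes with OB SostKO (-0.83, adjusted p = 0.125) and OB WT + rhDKK1 (-0.62, adjusted p = 0.213) were not called. Without OB WT + rhSOST array 3 the log2 fold change with OB WT + rhSOST was -1.01 (adjusted p = 0.00884). It was -0.83 with OB SostKO (adjusted p = 0.0165) and -0.62 with OB WT + rhDKK1 (adjusted p = 0.038), so all 3 were called. Without that array 4.89%, 4.34% and 4.01% of all kept probe sets were called in either direction, in the same order. With all arrays the lower and higher shares were 1.32% and 2.66%, 0.718% and 0.901%, and 0.721% and 1.03%.

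Probe set 208961_s_at showed the same array standing low, with log2 values of 10.28 and 10.01 with OB SostKO, 10.16 and 10.27 with OB WT + rhDKK1, 9.84, 10.04 and 9.39 in OB WT + rhSOST, and 10.49 and 10.69 in untreated PC3 cells. Relative to the mean of the untreated arrays, OB WT + rhSOST array 3 was at -1.72 by 208960_s_at and -1.20 by 208961_s_at on the log2 scale, but at -0.63 by 1555832_s_at. KLF6 by 208961_s_at fell by 0.83 ± 0.18 with OB WT + rhSOST (adjusted p = 0.0485) and was not called with OB SostKO (log2 fold change -0.44, adjusted p = 0.279) or with OB WT + rhDKK1 (-0.37, adjusted p = 0.353). For the mean of the co-cultures, 208960_s_at was called at a log2 fold change of -0.90 (adjusted p = 0.0329) and 208961_s_at was not, at -0.55 (adjusted p = 0.0813). Probe set 208961_s_at was called without OB WT + rhSOST array 3 (-0.49, adjusted p = 0.0283), where 11.7% of all kept probe sets were called in either direction.

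The fourth KLF6 probe set, 224606_at, had log2 values of 10.43 and 10.29 with OB SostKO, 10.33 and 10.36 with OB WT + rhDKK1, 10.18, 10.29 and 10.11 in OB WT + rhSOST, and 10.71 and 10.93 in untreated PC3 cells. All co-culture arrays were lower than both untreated arrays, and OB WT + rhSOST array 3 was the lowest. KLF6 by this probe set fell by 0.63 ± 0.10 on the log2 scale with OB WT + rhSOST (adjusted p = 0.0164) and by 0.52 ± 0.08 for the mean of the co-cultures (adjusted p = 0.0139). With OB SostKO and OB WT + rhDKK1 its log2 fold changes of -0.46 and -0.48 had adjusted p-values of 0.0734 and 0.0649. The fifth, 211610_at, lay below the filter, between 4.60 and 4.76 in co-culture arrays and at 4.72 and 4.68 in untreated arrays.

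**Figure D2:**
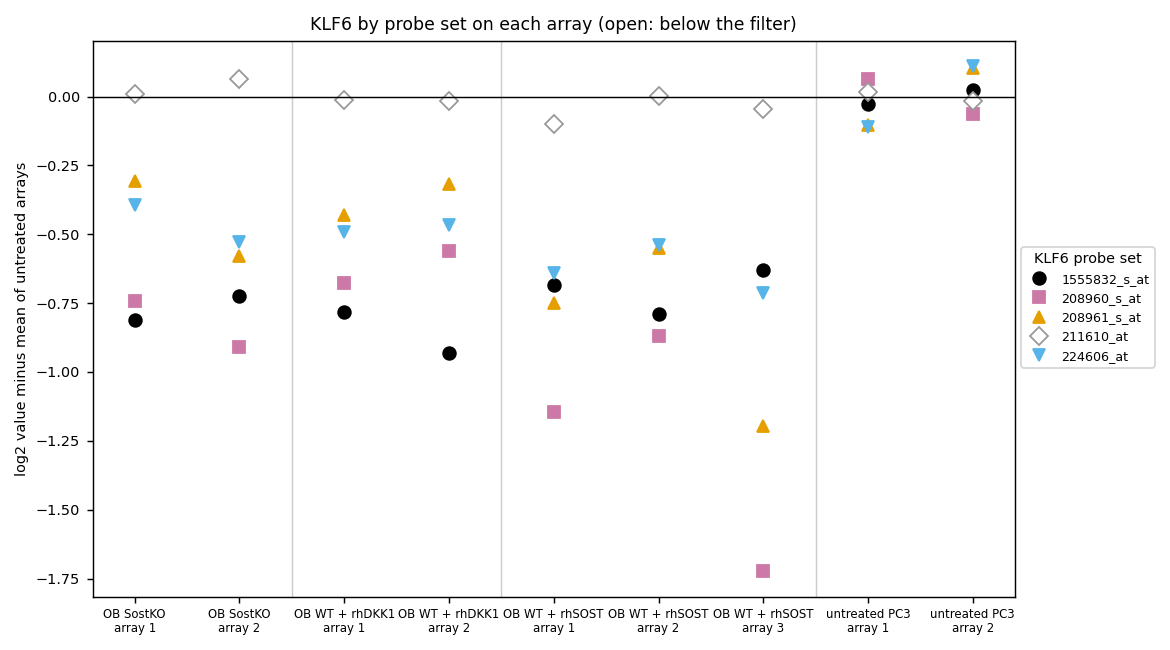
Log2 value of each KLF6 probe set on each array minus its mean over the 2 untreated arrays (y axis), by array (x axis); symbols are probe sets and the open diamonds are the one below the filter. OB WT + rhSOST array 3 stands at -1.72 by 208960_s_at and -1.20 by 208961_s_at, while 1555832_s_at stays between -0.93 and -0.63 on all 7 co-culture arrays.

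KLF10, also known as the TGF-β inducible early gene, fell moderately. Its probe set 202393_s_at had log2 values of 11.61 and 11.84 with OB SostKO, 11.87 and 11.80 with OB WT + rhDKK1, 11.83, 11.83 and 11.80 in OB WT + rhSOST, and 12.31 and 12.25 in untreated PC3 cells. Apart from OB SostKO array 1, the co-culture arrays lay close together, and none overlapped the untreated arrays. KLF10 fell by 0.56 ± 0.09 on the log2 scale with OB SostKO (1.47-fold lower, adjusted p = 0.0354) and by 0.46 ± 0.08 with OB WT + rhSOST (1.37-fold lower, adjusted p = 0.0287). With OB WT + rhDKK1 its log2 fold change of -0.44 ± 0.09 had an adjusted p of 0.0578, and the mean of the co-cultures gave -0.49 (adjusted p = 0.0116). The mean was no longer called without untreated array 1 (adjusted p = 0.113) or without untreated array 2 (adjusted p = 0.056). KLF10 lies on chromosome 8.

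ZFP36, the mRNA decay factor, was called in the main fit for the mean of the co-cultures but in none of the single co-cultures. Log2 values by 201531_at were 7.17 and 7.31 with OB SostKO, 7.18 and 7.21 with OB WT + rhDKK1, 7.32, 7.19 and 7.36 in OB WT + rhSOST, and 7.61 and 7.64 in untreated PC3 cells. The highest co-culture array was still below both untreated arrays. The log2 fold change of ZFP36 was -0.38 ± 0.07 for the mean of the co-cultures (SE, 1.30-fold lower, adjusted p = 0.0235). In the single co-cultures it was -0.38 with OB SostKO (adjusted p = 0.0788), -0.42 with OB WT + rhDKK1 (adjusted p = 0.0603) and -0.33 with OB WT + rhSOST (adjusted p = 0.0643). The call for the mean was lost without either untreated array (adjusted p = 0.142 without array 1 and 0.107 without array 2) and without either OB WT + rhDKK1 array (0.0642 and 0.0593). The gene lies at chr19:39406847-39409407.

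EGR1, the founding EGR factor, lay below the filter on every array, so its values are near the lower end of the scale and a fold change there may be a lower bound. All log2 values of its 3 probe sets were under 4.82, the lowest level that the filter set on an array. By 201694_s_at they were 3.75 and 3.63 with OB SostKO, 3.57 and 3.58 with OB WT + rhDKK1, 3.20, 3.51 and 3.45 in OB WT + rhSOST, and 4.56 and 4.62 in untreated PC3 cells. By 227404_s_at they were 3.04 and 2.96 with OB SostKO, 3.04 and 2.78 with OB WT + rhDKK1, 3.01, 2.91 and 3.06 in OB WT + rhSOST, and 3.74 and 4.08 in untreated PC3 cells. Both probe sets separated all co-culture arrays from the untreated arrays. Of all 54613 probe sets, kept or not, 9.24% lay entirely below the untreated arrays in this way.

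When the model was fitted with no filter, over 54613 probe sets, EGR1 by 201694_s_at fell by 0.90 ± 0.11 on the log2 scale with OB SostKO (adjusted p = 0.0159), 1.01 ± 0.11 with OB WT + rhDKK1 (adjusted p = 0.01) and 1.20 ± 0.10 with OB WT + rhSOST (adjusted p = 0.00202). By 227404_s_at the log2 fold changes were -0.91, -0.995 and -0.91 in the same order (adjusted p = 0.0283, 0.0196 and 0.0119). In that fit 0.32%, 0.344% and 0.712% of all probe sets were called lower in these co-cultures, and 1.59% for their mean. For the mean, both probe sets of EGR1 were called lower, at -1.03 (adjusted p = 0.00168) and -0.94 (adjusted p = 0.00478), and with each of the 9 arrays left out in turn. The calls in single co-cultures held less well. That of 201694_s_at was lost with OB SostKO and with OB WT + rhDKK1 when either array of the co-culture (adjusted p = 0.1 to 0.112) or either untreated array (0.0621 to 0.101) was left out, and held in all 9 cases in OB WT + rhSOST. That of 227404_s_at was lost with OB SostKO without either of its arrays, either untreated array, or OB WT + rhSOST array 1 or 2, with OB WT + rhDKK1 without either of its arrays or untreated array 2, and in OB WT + rhSOST without its array 2 or untreated array 2 (adjusted p = 0.0555 to 0.162). The third probe set, 201693_s_at, had log2 values of 4.23 and 4.28 with OB SostKO, 4.28 and 4.58 with OB WT + rhDKK1, 4.14, 4.08 and 4.28 in OB WT + rhSOST, and 4.53 and 4.19 in untreated PC3 cells. Its groups overlapped and its log2 fold changes of -0.11, 0.068 and -0.20 were not called, so the 3 probe sets of EGR1 disagree. EGR1 lies at chr5:138465479-138469303.

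EGR3, a related factor induced with EGR1 in many cells, was also below the filter on every array. Its log2 values by 206115_at were 3.91 and 3.43 with OB SostKO, 3.63 and 3.84 with OB WT + rhDKK1, 3.63, 3.36 and 3.65 in OB WT + rhSOST, and 3.68 and 3.46 in untreated PC3 cells. The groups overlapped, and the log2 fold changes with no filter were 0.10, 0.17 and -0.026, with adjusted p-values of 0.823, 0.69 and 0.959. EGR3 lies on chromosome 8.

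The 2 IER genes kept to a narrow range over the arrays, and neither was called. IER2, a nuclear early response protein, had log2 values by 202081_at of 12.24 and 12.15 with OB SostKO, 12.15 and 12.21 with OB WT + rhDKK1, 12.11, 12.18 and 12.37 in OB WT + rhSOST, and 12.15 and 11.98 in untreated PC3 cells. IER3 had log2 values by 201631_s_at of 13.09 and 12.84 with OB SostKO, 12.90 and 12.99 with OB WT + rhDKK1, 12.88, 12.92 and 12.88 in OB WT + rhSOST, and 13.02 and 13.09 in untreated PC3 cells. IER2 overlapped the untreated arrays in OB WT + rhDKK1 and OB WT + rhSOST, and both OB SostKO arrays lay above them, array 2 only just. IER3 lay below both untreated arrays on every OB WT + rhDKK1 and OB WT + rhSOST array, and OB SostKO array 1 overlapped them. For the mean of the co-cultures, the log2 fold change was 0.13 for IER2 (95% interval -0.069 to 0.34, adjusted p = 0.389) and -0.12 for IER3 (95% interval -0.30 to 0.061, adjusted p = 0.389). These intervals exclude a change of the size seen for KLF4 and KLF6, but not a smaller one.

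KLF2, known from endothelial cells and resting T cells, was not called by either of its probe sets. By 219371_s_at it had log2 values of 7.49 and 7.33 with OB SostKO, 7.33 and 7.23 with OB WT + rhDKK1, 7.36, 7.34 and 7.28 in OB WT + rhSOST, and 7.21 and 7.40 in untreated PC3 cells. By 226646_at it had 5.32 and 5.25 with OB SostKO, 4.99 and 5.49 with OB WT + rhDKK1, 5.09, 5.27 and 5.26 in OB WT + rhSOST, and 5.55 and 5.17 in untreated PC3 cells. All groups overlapped. The log2 fold changes for the mean of the co-cultures were 0.034 (95% interval -0.15 to 0.21) by 219371_s_at and -0.12 (95% interval -0.45 to 0.21) by 226646_at.

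**Figure D3:**
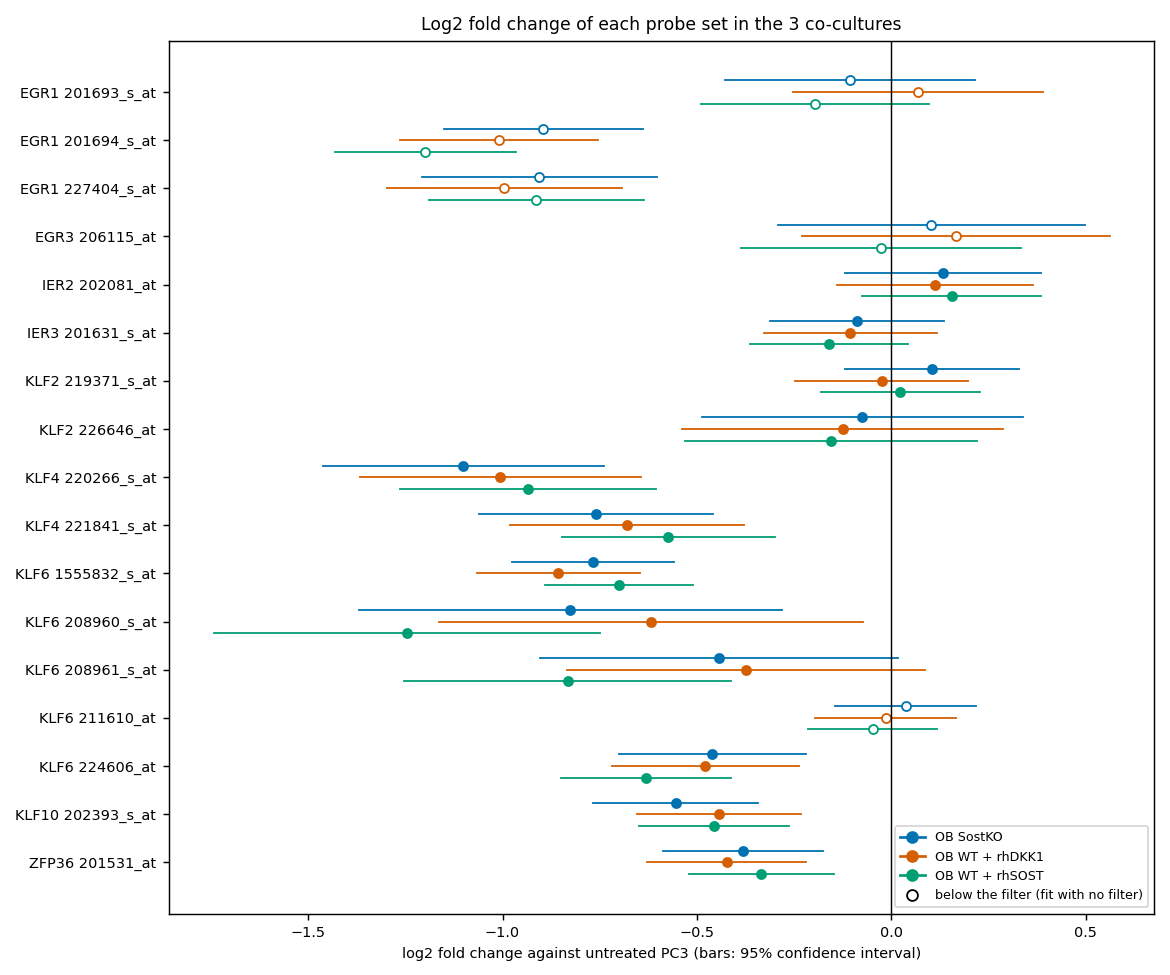
Log2 fold change against untreated PC3 cells (x axis) of each of the 17 probe sets (rows) in the 3 co-cultures (colours); bars are 95% confidence intervals from limma and open points come from the fit with no filter. KLF4, KLF6 by 1555832_s_at, 208960_s_at and 224606_at, KLF10, ZFP36 and EGR1 by 201694_s_at and 227404_s_at lie to the left of 0 with intervals that do not reach it, while EGR3, IER2, IER3 and KLF2 have intervals across 0.

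Between the co-cultures no member probe set was called, and neither was any of the 33970 kept probe sets (0%). At an unadjusted p under 0.05, limma gave 0 member probe sets and 290 of all kept probe sets for OB SostKO against OB WT + rhDKK1, 0 and 1165 for OB SostKO against OB WT + rhSOST, and 2 and 791 for OB WT + rhDKK1 against OB WT + rhSOST. The 2 were KLF6 by 208960_s_at, 0.63 higher on the log2 scale with OB WT + rhDKK1 than with OB WT + rhSOST (95% interval 0.13 to 1.12, adjusted p = 1), and KLF6 by 208961_s_at, 0.46 higher (95% interval 0.038 to 0.88, adjusted p = 1). In both, OB WT + rhSOST array 3 had the lowest value. For KLF4 by 220266_s_at the log2 difference was -0.095 between OB SostKO and OB WT + rhDKK1 (95% interval -0.46 to 0.27), -0.17 between OB SostKO and OB WT + rhSOST (95% interval -0.50 to 0.16) and -0.071 between OB WT + rhDKK1 and OB WT + rhSOST (95% interval -0.40 to 0.26). For KLF10 the same differences were -0.11 (-0.32 to 0.10), -0.099 (-0.29 to 0.094) and 0.012 (-0.18 to 0.20). For ZFP36 they were 0.041 (-0.16 to 0.25), -0.048 (-0.24 to 0.14) and -0.090 (-0.28 to 0.098). Differences as large as the bounds of these intervals would not have been resolved.

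Some early response genes outside these families were also lower in co-culture, and most were not called. Of 31 other immediate early genes that passed, each by its brightest probe set, 6 were lower with OB SostKO, 6 with OB WT + rhDKK1, 8 with OB WT + rhSOST and 13 for their mean, and none was higher. Over all 14863 genes, 0.794%, 0.841%, 1.35% and 2.79% were called lower in these comparisons, and 1.08%, 1.21%, 3.01% and 4.74% higher. The list's median log2 fold change for the mean of the co-cultures was -0.26, and that of all genes was -0.0039. The stress factor ATF3 fell by 1.28 ± 0.08 (adjusted p = 0.000486), the growth arrest gene GADD45A by 0.82 ± 0.07 (adjusted p = 0.00203), the MAP kinase phosphatase DUSP1 by 0.77 ± 0.07 (adjusted p = 0.00212) and the matrix protein gene CCN2 by 0.63 ± 0.07 (adjusted p = 0.00406) on the log2 scale.

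The relatives of the members were not called. Among those that passed the filter, none of 4 EGR relatives and NAB co-repressors, 11 other KLF genes, 3 other IER genes and 2 other ZFP36 family genes was called in any comparison with untreated PC3 cells. Over all 14863 genes, 0.794% to 2.79% were called lower in these comparisons and 1.08% to 4.74% higher. An absence of calls in sets as small as those in this paragraph is near these shares. KLF5, a factor of proliferating epithelium, came closest, with a log2 fold change of -0.39 for the mean of the co-cultures (adjusted p = 0.0529). NAB1, a co-repressor bound by EGR proteins, had -0.25 (adjusted p = 0.0893), and ZFP36L1 and ZFP36L2 had 0.063 and 0.0076. Upstream, none of 6 genes for SRF and its partners was called, with SRF at -0.26 (adjusted p = 0.0897), and none of 9 genes of the ERK and ERK5 cascade was. Of 8 heat shock genes listed, 5 had a probe set assigned to them alone, and none of the 5 was called. Their mean log2 level was 12.66 to 12.85 in co-culture arrays and 12.67 to 12.68 in untreated arrays. A response to handling was not tested.

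Downstream, 8 of 13 genes whose AU-rich mRNAs ZFP36 is known to bind were lower for the mean of the co-cultures, and 6 in each single co-culture. The list's median log2 fold change for the mean was -0.57, and that of all genes was -0.0039. Over all 14863 genes, 2.79% were called lower for the mean and 0.794% to 1.35% in the single co-cultures. Its 4 genes with the smallest p were the cytokine IL6, at -1.88 (adjusted p = 0.000268), and the neutrophil chemokines CXCL1, at -1.40 (adjusted p = 0.000268), CXCL3, at -1.41 (adjusted p = 0.000303), and CXCL2, at -1.70 (adjusted p = 0.000851). These 4 mRNAs and ZFP36, which promotes their decay, were all lower for the mean of the co-cultures. The genes are also known to be controlled at transcription, and the part of either control was not tested. Of 10 genes known to be controlled by EGR1, none was called in a single co-culture and 2 were lower for the mean, PDGFB at -0.25 (adjusted p = 0.0353) and VEGFA at -0.36 (adjusted p = 0.0422). The list's median was 0.016, and PDGFA, with a log2 fold change of 0.54, was not called (adjusted p = 0.064). Several genes, among them IER3, VEGFA, PTGS2, SRF and NAB2, stand in more than one of these sets.

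**Figure D4:**
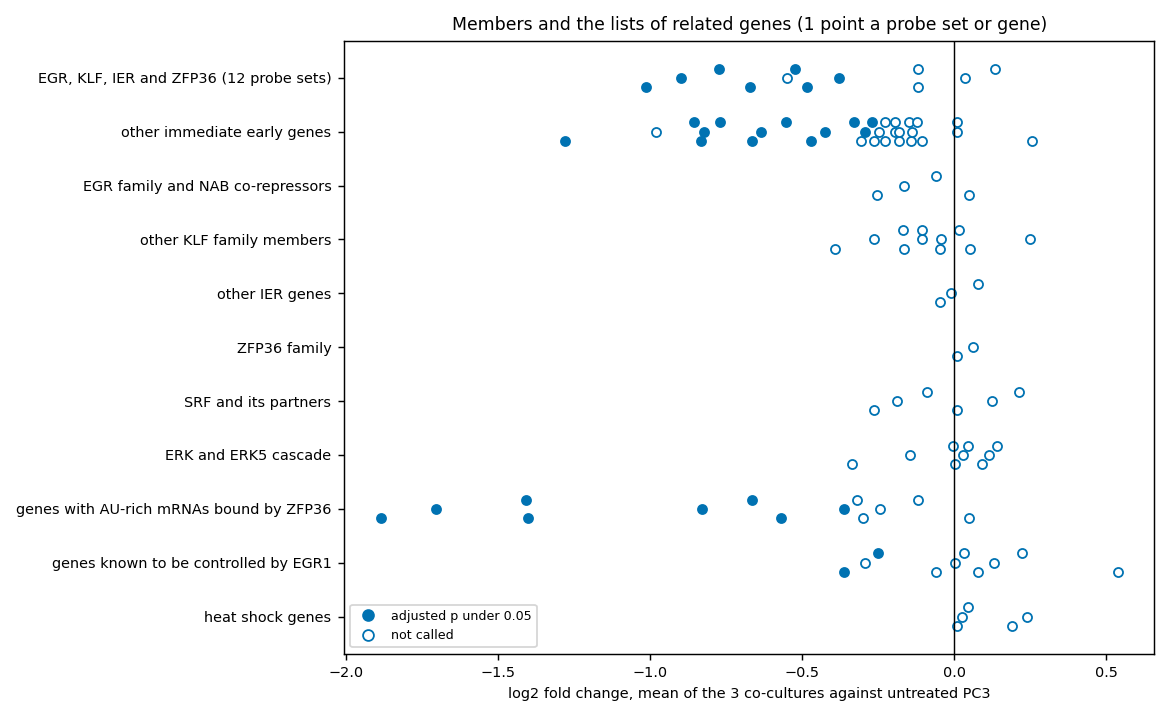
Log2 fold change for the mean of the 3 co-cultures against untreated PC3 cells (x axis) of the 12 member probe sets and of the genes in 10 lists (rows), 1 point a probe set or gene; filled points have an adjusted p under 0.05. Called genes stand in the members, the other immediate early genes (13 of 31), the ZFP36-bound mRNAs (8 of 13) and the EGR1-controlled genes (2 of 10), and all of them lie to the left of 0. Over all 14863 genes, 2.79% were called lower and 4.74% higher.

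The profile over the 9 arrays, as the log2 value minus the mean of the untreated arrays, was set against that of 14862 other genes. The likeness measure was the root mean square difference over the arrays, which share their untreated baseline. Nearest to KLF6 by 1555832_s_at were SQSTM1, an autophagy receptor, at 0.0567, IL13RA2, a receptor for interleukin 13, at 0.0789, and APOBEC3B, a cytidine deaminase, at 0.0839. Nearest to KLF4 by 221841_s_at were CYP27C1 at 0.0737, the transcription factor GATA6 at 0.0758 and the adhesion receptor ICAM1 at 0.0796. KLF10 had RGS20, SOX7 and CD83 as its nearest genes, at 0.0577, 0.0591 and 0.0643, and ZFP36 had ABITRAM, ULBP2 and CCNYL1, at 0.0418, 0.0424 and 0.0540. These profiles are dominated by the step between co-culture and untreated arrays.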

How the data were processed

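Total RNA of PC3 cells was measured on 9 Affymetrix arrays (U133 Plus 2.0). The authors deposited log2 values made with RMA, the tool that the submitters' processing notes name. RMA removes background, gives all arrays one distribution and condenses the probes of a set into one value; its version is not given in the sources used here. Because RMA equalizes the arrays, a shift shared by most genes would not be seen. Array medians lay between 5.45 and 5.52. Groups and replicate numbers came from the sample labels.

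All fits used limma 3.58.1 in R 4.3.3. The array has 54675 probe sets, 62 of them controls that were set aside. The filter kept the 33970 that came up to the 40th percentile of an array on 2 arrays or more; that level was 4.82 to 4.92. All 12 kept member probe sets lay above it on every array. Probe sets were named through the platform annotation, brought to current RefSeq symbols (41091 carry 1 symbol, 1801 several, 11721 none); all 9 members matched. A mean per group was fitted over all 9 arrays with lmFit and eBayes (8.00 degrees of freedom), so the groups share one spread, with a median standard error of 0.116 for the log2 fold change of OB SostKO. Probe sets were called at a Benjamini-Hochberg adjusted p under 0.05 over all kept probe sets. The fit was tested on simulated data. Preparation measures were compared by an exact permutation test over arrays.

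Members, lists and tests were chosen with earlier results of these data known. All members were named, with up to 4 genes of smallest p from each list and the 3 nearest profiles of each member called. Promoter sequences are from RefSeq, GRCh38.p14. Alternatives were no filter, a 60th percentile filter, cyclic loess, one probe set or the mean of probe sets per gene, only the groups compared, a trended robust spread, array weights, a replicate block, a 2-fold threshold, the tests the methods name and leaving out each array. The crossed block and EGR1 and EGR3 with no filter and each array left out were chosen after seeing the data.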

Additional observations from a re-analysis of the deposited data

How the results depend on the processing

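Precision was limited by groups of 2 or 3 arrays. Of 348 checks of single member probe sets against untreated PC3 cells under other settings, 304 kept their direction and side of the threshold, 25 lost and 18 gained a call and 1 changed direction (KLF2 by 219371_s_at with OB WT + rhSOST, -0.033 under cyclic loess). Of 432 with an array left out, 320 held, 95 lost and 7 gained a call. The 10 that changed direction were all uncalled values of KLF2 and IER3. With an array left out, KLF2 by 219371_s_at ranged from -0.12 to 0.068 with OB WT + rhDKK1 (0.027 without its array 2), from -0.071 to 0.12 with OB WT + rhSOST and from -0.060 to 0.13 for the mean. KLF2 by 226646_at ranged from -0.26 to 0.11 with OB SostKO, from -0.38 to 0.12 with OB WT + rhDKK1 (0.061 without untreated array 1), from -0.34 to 0.032 with OB WT + rhSOST and from -0.31 to 0.069 for the mean. IER3 ranged from -0.21 to 0.035 with OB SostKO.

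Counts of member probe sets called (4 with OB SostKO, 3 with OB WT + rhDKK1, 7 with OB WT + rhSOST, 7 for their mean) ranged over 0 to 5, 0 to 6, 0 to 6 and 1 to 8 with an array left out. With only the groups compared they were 0, 0 and 1. In the main fit with a 2-fold threshold added, the count was 1 in each co-culture and 1 for the mean. The tests the methods name gave 6, 6 and 8 unadjusted (7.82%, 8.18% and 9.76% of all kept probe sets) and 0 in each after Benjamini-Hochberg (14, 1 and 20 of all kept probe sets); neither setting has a value for the mean. With OB WT + rhDKK1 the count was 6 with the 60th percentile filter, 5 with a trended robust spread and 6 with array weights, where OB WT + rhSOST array 3 had the lowest weight (0.500). One probe set per gene, or the mean of a gene's probe sets, gave 4 with OB WT + rhSOST and 4 for the mean. These are counts of genes, where the main fit called probe sets of 3 genes with OB WT + rhSOST and of 4 for the mean. ZFP36 gained a call with OB WT + rhSOST in 4 of 8 other settings (limma adjusted p down to 0.0293). The share of all probe sets called was not counted with only the groups compared, the 60th percentile filter, the trended robust spread or array weights. Nor was it counted with a block or with 1 feature per gene. A change in the members therefore cannot be told from a change over the whole array there. The cause of these shifts was not tested. Between co-cultures the count was 0 in every setting run.

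The labels do not say whether same-numbered arrays pair. Correlations of their deviations had no common sign and ran between -0.54 and 0.43, and the main fit treated the arrays as unpaired. A replicate block gave 3, 2, 3 and 7 calls, and no block-dependent loss is read as a weaker effect. A crossed block for OB WT + rhDKK1, chosen after seeing the data, gave 2 calls against untreated PC3 cells and 0 against OB SostKO.

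The median log2 fold change of the members was -0.53 to -0.36, -0.46 to -0.39, -0.54 to -0.49 and -0.54 to -0.43 with an array left out. By one probe set or the mean of probe sets per gene it was -0.38 with OB SostKO, -0.33 with OB WT + rhSOST and -0.38 for the mean. With OB WT + rhSOST it was -0.46 with no filter and -0.57 with the 60th percentile filter.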
